A study of Rattus norvegicus with 30 samples.

Results

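Proximal sciatic nerve collected 4 d after nerve resection (SN 4 d) was compared with the same nerve collected 1 d after it (SN 1 d). These were 6 of the 30 arrays of the series, chosen by the tissue and day in their titles, with 3 arrays per time point. All animals were adult male Sprague-Dawley rats. In every rat of both groups a 1 cm piece of the left sciatic nerve had been cut out at mid-thigh, just above the point where the nerve divides, and 0.5 cm of nerve was taken for RNA at the named day. The labels name groups of 6 rats and do not state which rats each array holds, so the p-values below measure the spread between arrays, part of which may be technical. No uninjured nerve entered the difference between the days, and means at 0 d are given below only to place a level. The 0 d arrays did enter the shared estimate of the spread and the choice of probes tested. Each array reports 41012 rat probes in 1 colour. The normalized signal of a probe is its log2 processed intensity minus the 75th percentile of its array, so that 0 stands for that percentile and a difference of 1 for a 2-fold change.

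A peripheral nerve consists of axons wrapped by Schwann cells, with fibroblasts, vessels and resident macrophages around them. After it is cut, neutrophils enter first, macrophages and then lymphocytes follow, and Schwann cells lower their myelin programme, divide and take on a repair state. Chemokines are small secreted proteins that draw white blood cells into tissue, and cholesterol made within Schwann cells is a main building block of the myelin sheath. The comparison of 4 d with 1 d asks which of these programmes changed between the acute phase and the start of repair.

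Between 34938 and 35152 probes per array were well above background at 1 d, and between 33871 and 34705 at 4 d. Pearson's r over probes averaged 0.994 among the arrays of 1 d, 0.991 among those of 4 d and 0.975 over the 9 pairs across the 2 time points. All 6 arrays were scanned on the same day, but no slide held nerve arrays of both time points, so within nerve the slide and the day after resection cannot be told apart. All 9 Schwann cell markers were well above background on all 6 arrays. Sox10, the transcription factor of the Schwann cell lineage, read 5.07, 5.24 and 5.05 at 1 d and 5.31, 5.11 and 5.02 at 4 d, and the groups overlapped. The markers had a median change of 0.07 (0.21 with quantile normalization) and none was called, with S100b, a calcium-binding protein of glia, at -0.75. In tissue of many cell types, fewer cells of a type and less RNA per cell cannot be told apart.

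Of 35157 probes tested, 1196 were upregulated and 1802 downregulated at 4 d, by limma, where a call needed more than a 2-fold change and a p under 0.05 after the correction of Benjamini and Hochberg. These are 3.4% and 5.13% of the probes tested, 8.53% together, and the median change over all tested probes was -0.06. Changes over 10-fold were met by 35 upregulated and 53 downregulated probes. A further 171 and 222 probes changed by 4 to 10 fold. Of the upregulated probes 1014 were well above background on all 6 arrays, and of the downregulated probes 1241. The median level of the downregulated probes was -3.67 at 1 d and -5.15 at 4 d. Without array 3 of 4 d, the only one on its slide among the nerve arrays compared, 1111 probes were upregulated and 1045 downregulated. Quantile normalization gave a split of 1553 against 1278. A fit of both tissues with slide as a fixed block, chosen after seeing the data, gave 839 against 431. In that fit the slide of the nerve arrays of 1 d was tied to the other slides only through 1 array of dorsal root ganglia. All its values for 4 d against 1 d therefore rest on that array, here and below.

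**Figure D1:**
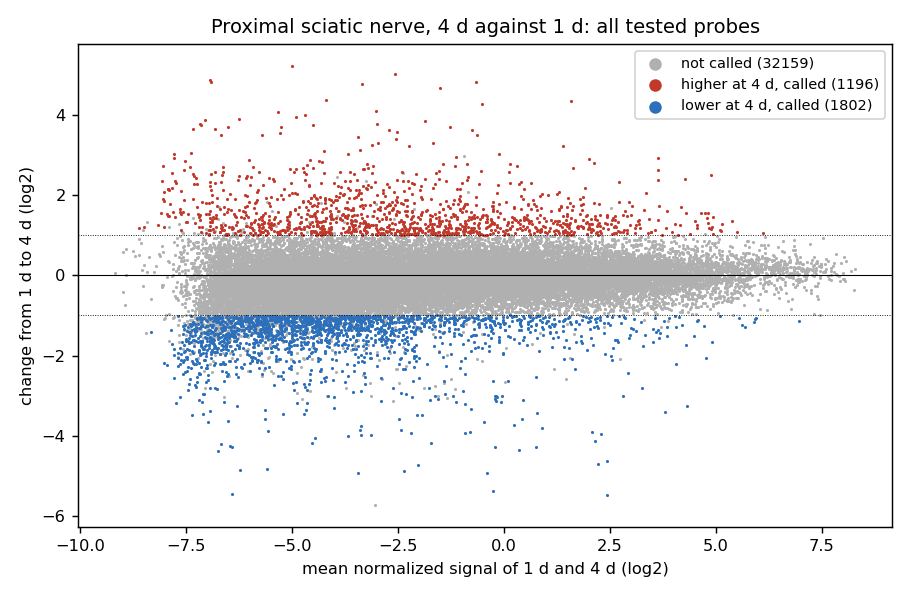
Each point is 1 of the 35157 tested probes, with its mean normalized signal over the 6 arrays on the horizontal axis (log2) and its change from 1 d to 4 d on the vertical axis (log2). Dotted lines mark a 2-fold change; the 1196 upregulated probes are red and the 1802 downregulated probes blue, many of the latter at low signal.

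Among the largest rises were a chemokine, a sensory neuropeptide and a matrix protease. C1qtnf3, a secreted protein of the C1q and tumor necrosis factor related family, read -4.97, -5.25 and -4.99 at 1 d and -0.87, 0.04 and 0.68 at 4 d. All arrays of 4 d lay above those of 1 d, and the rise was 32.5-fold (log2 change 5.02 ± 0.44 SE, adjusted p = 1.2e-05). Ccl17, a chemokine that attracts T cells through the receptor Ccr4, read -4.26, -3.95 and -3.35 at 1 d and 0.78, 0.72 and 0.95 at 4 d, a 25.5-fold rise (adjusted p = 7.1e-07). Calcb, which encodes the beta form of calcitonin gene-related peptide, read -2.70, -2.55 and -2.71 at 1 d and 1.51, 1.79 and 1.56 at 4 d, a 19.4-fold rise (adjusted p = 1.8e-06). The 3 arrays of each day were close together for Calcb, and its mean at 0 d was -5.41. Other genes of this rank were the matrix protease Mmp7 (27.4-fold), the proton pump subunit Atp6v0d2 (20.7-fold), the Fc receptor-like gene Fcrl2 (20.1-fold, named Fcrls by the array), the macrophage complement receptor Vsig4 (13.7-fold) and the serine protease-like gene Prss35 (12.4-fold). On the log2 scale the ubiquitin-like modifier Ubd rose by 3.70, Tmem273 by 3.58, the receptor phosphatase Ptprv by 3.50 and Plcxd3 by 3.39. In each of these 12 genes the arrays of 4 d all lay above those of 1 d, as the rule for naming them required.

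The largest falls were in genes of skeletal muscle, which is not a tissue of the nerve. Of the 12 genes with the largest falls 11 were muscle genes, namely Myh4, Mybpc2, Myl3, Xirp2, Myot, Ckm, Actn3, Myl1, Ckmt2, Abra and Acta1. Myh4, a fast myosin heavy chain, read 4.96, 4.45 and 6.07 at 1 d and 2.12, -1.82 and -1.25 at 4 d. The first array of 4 d stood well above the other two, and the change was -5.48 ± 1.48 (SE, adjusted p = 0.013). The SEs of the muscle genes ran from 1.08 to 1.56, against 0.23 for the twelfth gene, S100a8. All 7 muscle markers of the fixed list fell, with a median of -4.28, among them the muscle actin Acta1 (-4.14), the creatine kinase Ckm (-4.70) and the myosin light chain Myl1 (-4.28). Their mean over the list went from 4.21 on day 1 to -0.10 on day 4, and stood at 4.91 in uninjured nerve, 1.17 on day 7 and 3.96 on day 14. Without array 3 of 1 d, or without array 2 of 4 d, 2 of the 7 were called, without array 3 of 4 d 4, and with slide as a random or a fixed block none. No muscle marker was at background on these arrays, and the part that muscle RNA has in other falls was not tested.

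Red blood cell genes fell as well. Hbb, a globin gene, read 1.96, 2.71 and 3.28 at 1 d and 0.96, 0.95 and -0.22 at 4 d, and the days did not overlap. All 4 erythroid markers on the array were called, Hbb at -2.09, the heme enzyme Alas2 at -1.96, the anion exchanger Slc4a1 at -1.95 and the globin chaperone Ahsp at -1.81, and none of them was called without array 2 or 3 of 1 d, without array 3 of 4 d or with slide as a block. Of 6 adipocyte markers 3 fell, the adipokine gene Adipoq (-1.32), the fatty acid binding protein Fabp4 (-1.01) and the lipid droplet gene Cidec (-1.57). Of these 1 was called with slide as a random block and none with the methods' t-test after adjustment. Plin1, which coats lipid droplets, changed by -0.80 and was not called.

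Most mitosis genes rose, while most DNA replication genes were not called. Of 29 mitosis genes on the array 23 were upregulated and none downregulated, with a median change of 1.18 against -0.06 over all probes. In all 29 the arrays of 4 d lay above those of 1 d, which 25.9% of all probes also did. The mean over the list was between -0.44 and -0.32 on the arrays of 1 d and between 0.77 and 0.83 on those of 4 d. Ccnb1, which encodes the cyclin that drives entry into mitosis, read 1.17, 1.22 and 1.24 at 1 d and 2.58, 2.68 and 2.77 at 4 d. The arrays of each day were close together and far from the other day, a 2.77-fold rise (log2 change 1.47 ± 0.14 SE, adjusted p = 1.6e-05). The largest rises of the list were Birc5 (survivin, 1.90), Ccnb2 (a mitotic cyclin, 1.62) and Pttg1 (securin, 1.49), and Cdk1, the kinase partner of the mitotic cyclins, rose by 1.08. Aurka, Kif11, Nek2, Cdc25c, Mad2l1 and Espl1 did not reach a 2-fold change, with values between 0.73 and 0.93. With slide as a fixed block 19 of them were called, and without array 3 of 4 d 23.

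Of 23 DNA replication genes on the array 1 was upregulated and none downregulated, with a median change of 0.22. Over all tested probes 3.4% were upregulated. Of the 23 genes 19 were higher at 4 d, by mostly small amounts. In 12 of them every array of 4 d lay above every array of 1 d, which held for 25.9% of all probes. The one was Rrm2, the regulated subunit of ribonucleotide reductase, which read -0.80, -1.18 and -0.66 at 1 d and 0.76, 0.66 and 0.61 at 4 d (1.55 ± 0.18 SE, adjusted p = 7.5e-05). Mcm6, part of the helicase that opens DNA for copying, read 1.14, 1.17 and 1.31 at 1 d and 1.30, 1.46 and 1.16 at 4 d, and the groups overlapped. Its mean at 0 d was -1.33. The helicase subunits Mcm2 and Mcm4 changed by 0.06 and -0.06, and the sliding clamp gene Pcna by -0.31. Mcm3 had no probe. The list had a mean level of -1.01 at 0 d, 0.38 at 1 d and 0.63 at 4 d, and the mitosis list had -1.26, -0.39 and 0.79 on the same days.

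The promoters of these genes are shown because mitotic and replication genes are known to be driven through different elements, the CHR element and CCAAT box bound by the DREAM complex and NF-Y, and E2F sites. RefSeq promoters (GRCr8) were matched for 25 of the 29 mitosis genes and 18 of the 23 replication genes, and the 250 bases before each start were searched on both strands. The letters TTTGAA of a CHR element were held by 11 of 25 mitosis promoters (44.0%), 1 of 18 replication promoters and 16.2% of all 33469 promoters. CCAAT was held by 19 of 25 (76.0%), 9 of 18 and 34.0%. The E2F-like letters TTTGGCGC were held by none of the mitosis promoters, 4 of 18 replication promoters (22.2%) and 0.412% of all promoters. Below are the 150 bases before the start of Cdc20, Ccnb1 and Plk1 from the first list and Mcm6 from the second, with matches in capitals (CCAAT also as ATTGG on the other strand). They lie at chr5:137255800-137255949, chr2:33655226-33655375 and chr13:42404353-42404502 on the minus strand for Cdc20, Ccnb1 and Mcm6, and at chr1:186147508-186147657 on the plus strand for Plk1.
Cdc20: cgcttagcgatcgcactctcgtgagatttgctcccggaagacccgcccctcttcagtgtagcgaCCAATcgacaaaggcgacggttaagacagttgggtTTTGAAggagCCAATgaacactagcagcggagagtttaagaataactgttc
Ccnb1: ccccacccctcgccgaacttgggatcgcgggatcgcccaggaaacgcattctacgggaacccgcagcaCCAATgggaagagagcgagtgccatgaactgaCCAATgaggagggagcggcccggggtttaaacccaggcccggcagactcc
Plk1: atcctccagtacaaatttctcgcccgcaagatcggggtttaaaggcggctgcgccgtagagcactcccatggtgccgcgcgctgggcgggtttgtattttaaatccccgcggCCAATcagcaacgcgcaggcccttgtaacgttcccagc
Mcm6: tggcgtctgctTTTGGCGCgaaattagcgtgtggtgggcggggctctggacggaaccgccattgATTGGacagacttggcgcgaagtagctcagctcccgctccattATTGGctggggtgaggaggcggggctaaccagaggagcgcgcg
In Cdc20 the CHR letters stand at -51 to -46 from the start, between CCAAT boxes at -86 to -82 and -41 to -37. Cdc20, which activates the ubiquitin ligase that ends metaphase, read 1.55, 1.49 and 1.52 at 1 d and 2.59, 2.58 and 2.65 at 4 d (1.08 ± 0.11 SE, adjusted p = 2.5e-05), with no overlap. These stretches of Ccnb1 and Plk1 hold CCAAT and no TTTGAA, the only form of the CHR element that was searched for. A match is a description of the letters and not of binding.

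Neutrophil genes fell steeply. S100a8, a subunit of the neutrophil protein calprotectin, read 2.56, 2.06 and 2.98 at 1 d and -2.14, -1.66 and -1.65 at 4 d, and all arrays of 4 d lay far below those of 1 d. The fall was 20.4-fold (log2 change -4.35 ± 0.23 SE, adjusted p = 5.5e-07). Its partner S100a9 changed by -3.57, the histone-modifying enzyme Padi4 by -2.96 and the decoy interleukin-1 receptor Il1r2 by -2.63. Cxcr2, the receptor of Cxcl1 and Cxcl2 described next, changed by -2.36. Of 15 neutrophil markers 13 were tested and 9 fell, with a median of -1.35, and the collagenase Mmp8 (-0.58) was not called. The list mean was -5.41 in uninjured nerve, between -3.16 and -2.48 on the arrays of 1 d and between -4.69 and -4.40 on those of 4 d. Of the 9, 6 were called with slide as a random block and 4 with a fixed block, and the median was -0.58 with normexp background correction and quantile normalization.

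Chemokines moved in both directions. Of the 22 listed chemokines on the array, among which Ccl17 described above is not counted, 9 were downregulated and 2 upregulated, with a median of -0.84, which ranged from -1.20 to -0.60 when single arrays were left out. Cxcl2, which attracts neutrophils, read 0.33, -0.56 and -0.30 at 1 d and -4.18, -3.79 and -3.03 at 4 d, an 11.2-fold fall (log2 change -3.49 ± 0.31 SE, adjusted p = 1.2e-05). Cxcl1, a close relative with the same receptor, read 1.50, 1.43 and 1.30 at 1 d and -0.72, -1.52 and -1.42 at 4 d (-2.63 ± 0.20 SE, adjusted p = 4.6e-06). For both genes the days were widely separated, and Cxcl3 fell by 3.49 on the log2 scale. Ccl2, the main monocyte chemokine, read 5.25, 5.08 and 5.16 at 1 d and 2.56, 2.79 and 3.50 at 4 d, a 4.63-fold fall that left it above its 0 d mean of 1.42. The related Ccl7 (-1.82), the eosinophil chemokine Ccl24 (-2.57), the lymphoid chemokine Ccl19 (-1.11), Ccl20 (-1.82) and Cxcl14 (-1.25) fell too. The listed chemokines that rose attract T and NK cells, and 1 of the 2 was called with slide as a fixed block. Ccl5 read -2.34, -1.91 and -1.93 at 1 d and 0.11, 0.26 and 0.56 at 4 d (2.37 ± 0.27 SE, adjusted p = 6.5e-05), and Cxcl9 rose by 1.50. Cxcl10, another ligand of the receptor of Cxcl9, had a change of 1.67 that was not called, with array 3 of 4 d at 4.50 and the others at 2.78 and 2.80.

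The promoters of Cxcl1 and Cxcl2 are shown because NF-kB, a transcription factor of acute inflammation, is known to drive both. The NF-kB-like letters, GGG and TTTCC with any 2 bases between, were held within 250 bases of the start by 4 of 16 matched chemokine promoters, 1 of 25 mitosis promoters, none of the replication promoters and 1.30% of all promoters. The genes lie next to each other in the genome, and their stretches are chr14:17479322-17479471 and chr14:17467256-17467405, both on the minus strand of GRCr8.
Cxcl1: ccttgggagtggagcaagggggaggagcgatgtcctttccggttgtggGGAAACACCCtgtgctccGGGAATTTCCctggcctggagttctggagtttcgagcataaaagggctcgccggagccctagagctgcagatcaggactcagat
Cxcl2: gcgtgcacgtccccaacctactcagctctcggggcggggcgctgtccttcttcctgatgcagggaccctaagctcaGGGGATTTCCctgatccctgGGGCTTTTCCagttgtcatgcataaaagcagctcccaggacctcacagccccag
Each stretch holds the letters in 2 places, at -102 to -93 and -84 to -75 in Cxcl1 (the first on the other strand) and at -74 to -65 and -54 to -45 in Cxcl2.

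Of 18 inflammatory cytokines on the array 3 fell and 1 rose, with a median of -0.27. Il6, a cytokine of the acute phase, read -2.70, -2.36 and -2.63 at 1 d and -3.49, -3.90 and -3.74 at 4 d (-1.15 ± 0.26 SE, adjusted p = 0.0057), and the days did not overlap. Il1b fell by 1.04 on the log2 scale and Il11 fell to the background on every array of 4 d, by at least 2.71-fold. Such bounds set the mean of the measured day against the dimmest signal well above background on the arrays of the other day, or the gene's own signal where that was higher. Il1a changed by 0.38 and was not called. The one rise was Tgfb1 (1.04), a growth factor of fibrosis and of Schwann cell repair. None of the 3 falls, nor the rise, was called with slide as a fixed block or with normexp, and without array 3 of 4 d there were 5 falls and no rise. The rise was not called without array 2 of 1 d either.

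**Figure D2:**
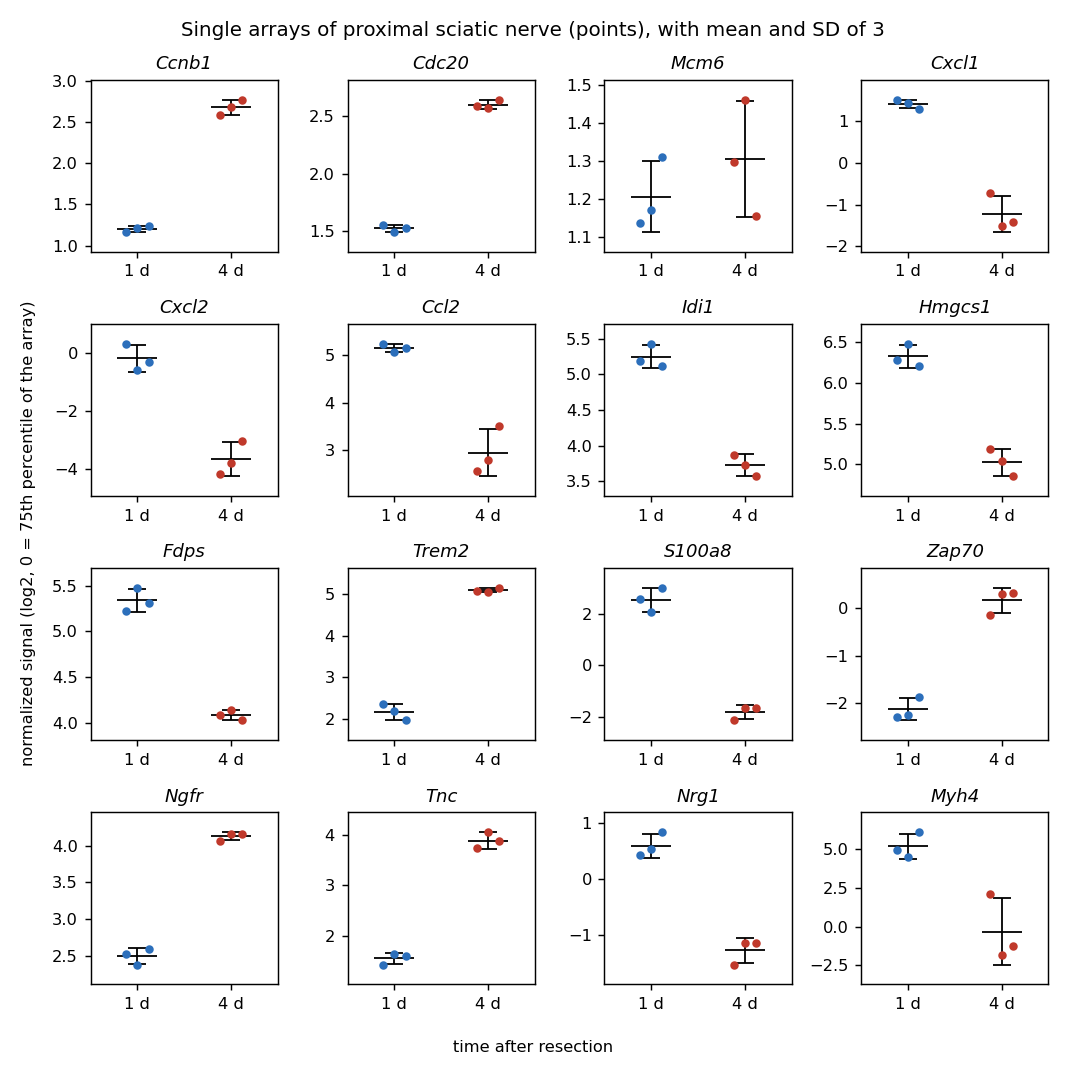
Normalized signal (log2, vertical axis, with its own range in each panel) of 16 genes on the 3 arrays of 1 d (blue) and the 3 of 4 d (red), with the mean and SD as lines. The days are separated in every panel but Mcm6, and Myh4 shows the wide spread at 4 d, with its first array at 2.12.

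Of 16 macrophage markers 7 rose and none fell, with a median of 0.63. Trem2, a lipid-sensing receptor of phagocytes, read 2.35, 2.18 and 1.96 at 1 d and 5.07, 5.05 and 5.14 at 4 d, a 7.59-fold rise (log2 change 2.92 ± 0.12 SE, adjusted p = 1.7e-07). The arrays of 4 d were nearly equal and all far above those of 1 d, whose mean was close to the 2.26 of 0 d. C1qa and C1qc, chains of the first complement component made by macrophages, rose by 2.51 and 2.05, and C1qb changed by 0.54 and was not called. The others called were Cd68 (1.54), the growth factor receptor Csf1r (1.05), Adgre1 (1.69) and the fractalkine receptor Cx3cr1 (1.31). Cd163, a scavenger receptor, changed by -0.22 and Cd14, the coreceptor for endotoxin, by -0.31. The list mean was 1.66 in uninjured nerve and 2.69 and 3.61 on the days compared.

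Among 16 genes of lipid handling and lysosomes 3 rose and 1 fell, with a median of 0.62. Gpnmb, a glycoprotein of lipid-laden phagocytes, read 5.02, 4.41 and 4.62 at 1 d and 5.92, 5.97 and 6.26 at 4 d, with no overlap. The cholesterol exporter Abca1 rose by 1.63 and the lysosomal protease Ctss by 1.46, while lipoprotein lipase, Lpl, fell by 1.20 on the log2 scale. Apoe, the carrier of lipids in the injured nerve, changed by 0.92 and Spp1, osteopontin, by -0.83, and neither reached a 2-fold change. Complement genes rose in 6 of 14, with a median of 0.53 and none called down. Cfi, the protease that cuts C3b, rose by 1.61, C2 by 1.41 and the central component C3 by 1.27, while C1r (0.46) and C1s (0.60) were not called. Of the 6, 2 were called with a fixed slide block.

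MHC class II genes, which present peptides to helper T cells, rose in 6 of 7, with a median of 1.55. Cd74, the invariant chain, read 3.85, 3.95 and 3.83 at 1 d and 5.34, 5.31 and 5.63 at 4 d, a 2.93-fold rise (adjusted p = 6.0e-06), and the days were well apart. RT1-Da, an alpha chain, rose by 1.71, the beta chain gene RT1-Bb by 1.78 and Ciita, the master regulator of the class, by 1.38. RT1-Ba changed by 0.54 and its arrays overlapped. The RT1 genes are near-identical copies within families, so that a probe may read more than 1 of them.

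T and NK cell genes rose in 13 of 16, with a median of 1.98 and no fall. Klrd1, a receptor of NK cells, read -5.40, -5.06 and -5.11 at 1 d and -2.54, -2.13 and -1.87 at 4 d, an 8.05-fold rise (log2 change 3.01 ± 0.25 SE, adjusted p = 8.9e-06). Zap70, a kinase below the T cell receptor, read -2.28, -2.23 and -1.86 at 1 d and -0.14, 0.31 and 0.32 at 4 d, a 4.88-fold rise. In both genes all arrays of 4 d lay above those of 1 d. Cd3e, a chain of the T cell receptor complex, rose by 2.86, the cytotoxic granule genes Nkg7, Prf1 and Gzmb by 2.78, 2.35 and 2.08, and Cd4 by 1.97. Cd3d (0.95), Cd3g (0.96) and Cd8a (0.49) did not reach a 2-fold change. Ifng, the cytokine of these cells, was at background on every array of 1 d and rose at least 2.71-fold. The list mean lay between -3.27 and -3.08 on the arrays of 1 d and between -1.48 and -1.08 on those of 4 d, and 12 of the rises were called with slide as a fixed block.

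Interferon genes had a median of 0.82 and 1 of 17 was called. The median was 0.38 without array 2 of 1 d and 0.54 without array 3 of 4 d. The list mean ran from 0.80 to 1.92 over the arrays of 1 d and from 1.71 to 2.86 over those of 4 d. Mx1, an antiviral GTPase, read 0.55, -1.79 and -0.04 at 1 d and 0.62, 0.05 and 2.22 at 4 d. The lowest value was array 2 of 1 d and the highest array 3 of 4 d, as for Isg15, a ubiquitin-like protein (2.23 and 5.59), and Irf7, a transcription factor (3.13 and 6.02). The one called gene was the GTPase gene Gbp2, which read 5.64, 5.32 and 5.78 at 1 d and 6.66, 6.58 and 6.69 at 4 d (adjusted p = 0.0065). No gene of the list was called with quantile normalization, normexp, the authors' matrix or a fixed slide block, or without array 2 of 1 d, while 2 were without array 1 of 1 d and 3 without array 1 of 4 d. Of the B cell markers, Ms4a1 was too dim to be tested, Cd79b fell by 1.01 on the log2 scale and the kinase Blk changed by 0.93 without a call. The fall of Cd79b was near the 2-fold limit and was lost with 6 other settings, both slide blocks and the authors' matrix among them, and without array 3 of 1 d or array 1 or 3 of 4 d. With quantile normalization, with the authors' matrix, and without array 2 of 1 d or array 1 of 4 d, 1 B cell marker was called up. Of 7 mast cell markers 3 fell, the chymase Cma1 (-1.10), the histamine enzyme Hdc (-1.09) and the receptor Kit (-1.25), and the proteases Cpa3 (-0.96) and Tpsab1 (-0.31) and the receptor chain Ms4a2 (-0.88) were not called. With normexp, or without array 3 of 1 d, 1 mast cell marker was called.

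**Figure D3:**
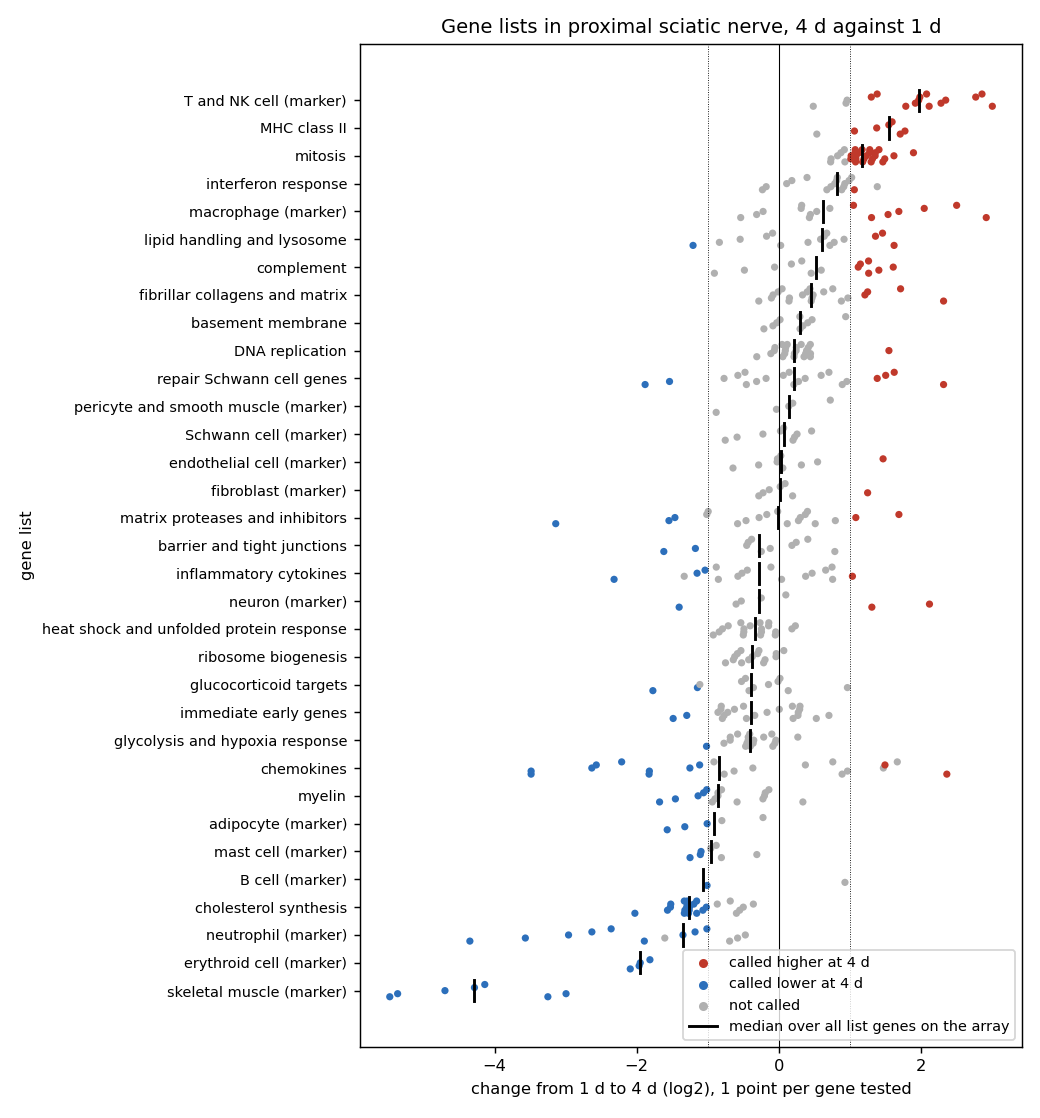
Change from 1 d to 4 d (log2, horizontal axis) of every tested gene in the 33 gene lists (vertical axis), 1 point per gene, red where upregulated, blue where downregulated and grey where not called. Black bars are the medians over all genes of a list on the array, from 1.98 for T and NK cell genes to -4.28 for skeletal muscle genes.

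Most genes of cholesterol synthesis fell. Of 24 on the array 18 were downregulated and none upregulated, and the median change was -1.26. All 24 had every array of 4 d below every array of 1 d, which 33.3% of all probes also had. Hmgcs1, the enzyme that starts the pathway toward mevalonate, read 6.28, 6.48 and 6.21 at 1 d and 5.19, 5.04 and 4.86 at 4 d (-1.29, adjusted p = 3.5e-05). Idi1, which makes the isoprene unit that is built onward, read 5.18, 5.43 and 5.12 at 1 d and 3.87, 3.73 and 3.57 at 4 d (-1.52 ± 0.14 SE, adjusted p = 1.7e-05). In both genes the gap between the days exceeded the range within either. The largest falls were Hsd17b7 (-2.02), Fdft1 (squalene synthase, -1.56) and Tm7sf2 (-1.52), and Sqle, which oxidizes squalene, fell by 1.33 on the log2 scale. The sterol sensor partner Insig1 (-1.29) fell with the enzymes, while Mvk (-0.59), Pmvk (-0.68), Ebp (-0.55), Srebf2 (-0.50) and Stard4 (-0.36) were not called. The list mean was 2.65 in uninjured nerve, 2.04 on day 1, 0.90 on day 4 and 0.82 on day 7. The fixed slide block left 17 of them called.

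Promoters of Idi1 and Fdps are shown because the sterol-controlled factor SREBP2 is known to act there together with NF-Y. The CCAAT box that NF-Y binds was held by 14 of 16 matched promoters of the list (87.5%) and by 34.0% of all promoters. The stretches are chr17:66547525-66547674 and chr2:176804817-176804966, both on the minus strand of GRCr8.
Idi1: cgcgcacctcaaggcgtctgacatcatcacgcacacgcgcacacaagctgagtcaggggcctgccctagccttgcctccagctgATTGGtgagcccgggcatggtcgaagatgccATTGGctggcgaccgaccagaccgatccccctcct
Fdps: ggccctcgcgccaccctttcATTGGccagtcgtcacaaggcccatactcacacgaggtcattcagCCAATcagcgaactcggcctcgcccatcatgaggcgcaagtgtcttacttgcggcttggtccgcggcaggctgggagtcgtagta
Each holds CCAAT in 2 places, at -66 to -62 and -35 to -31 in Idi1 and at -130 to -126 and -85 to -81 in Fdps. Fdps, which joins isoprene units into farnesyl diphosphate, read 5.23, 5.47 and 5.32 at 1 d and 4.09, 4.14 and 4.03 at 4 d, with no overlap between the days.

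Myelin genes were lower at 4 d, with 5 of 16 downregulated and a median of -0.85. Pmp2, a fatty acid binding protein of compact myelin, read 7.52, 7.61 and 7.45 at 1 d and 6.45, 6.33 and 6.40 at 4 d (-1.13 ± 0.11 SE, adjusted p = 2.3e-05), and the days were clearly separated. Enzymes of myelin lipids fell, Fa2h (-1.68) and Ugt8 (-1.06), as did the channel gene Gjb1 (-1.45) and myelin basic protein, Mbp (-1.01). Pmp22, a structural protein of compact myelin, changed by -0.14 without a call. Without array 2 of 1 d, without array 3 of 4 d, and with slide as a fixed block, 3 of the 16 were called.

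Genes of the repair Schwann cell moved in different directions, with 4 of 21 upregulated, 2 downregulated and a median of 0.21. Ngfr, the low-affinity neurotrophin receptor, read 2.53, 2.38 and 2.59 at 1 d and 4.07, 4.15 and 4.16 at 4 d, a 3.09-fold rise (log2 change 1.63 ± 0.11 SE, adjusted p = 1.9e-06). Tnc, the matrix glycoprotein tenascin C, read 1.43, 1.64 and 1.61 at 1 d and 3.73, 4.05 and 3.87 at 4 d, a rise of 2.32. Both lay far above their range at 1 d, and N-cadherin, Cdh2, rose by 1.39. Fgf5 was not well above background at 1 d and rose at least 2.28-fold. Nrg1, the neuregulin that Schwann cells make after injury, read 0.42, 0.53 and 0.84 at 1 d and -1.54, -1.16 and -1.16 at 4 d, a fall of 3.68-fold (adjusted p = 3.0e-05), although its mean at 0 d was lower still at -4.64. Ucn2, a peptide of the urocortin family, followed the same course (-1.54 from 1 d to 4 d, mean at 0 d -6.00). The brightest probe of Gdnf changed by 0.90 while another probe of the gene was called down. Shh changed by -0.57 and Jun, a transcription factor of the repair state, by 0.71, and neither was called.

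Matrix genes rose in 4 of 21 and fell in none, with a median of 0.46. Beside Tnc these were periostin, Postn (1.72), lumican, Lum (1.25), and the collagen VI chain Col6a3 (1.22). With slide as a fixed block 2 of the list were called. Postn read 2.26, 1.98 and 2.23 at 1 d and 3.69, 3.83 and 4.11 at 4 d, which brought it back to its 0 d mean of 3.68. The collagen genes Col1a1 (-0.01) and Col3a1 (0.15) hardly changed, and fibronectin, Fn1, at 0.40 was not called. Of the 21 matrix genes 17 were higher at 4 d. In 15 of them every array of 4 d lay above every array of 1 d, which held for 25.9% of all probes. Basement membrane genes had a median of 0.30 and no calls, with the laminin chains Lama2 at 0.34, Lamb1 at 0.30 and Lamc1 at 0.47. Of 19 matrix proteases and inhibitors 3 fell and 2 rose. Mmp3, stromelysin, read -1.22, -1.16 and -1.64 at 1 d and -4.52, -4.54 and -4.36 at 4 d, an 8.81-fold fall with no overlap. Mmp10 (-1.46) and the inhibitor Timp3 (-1.54) fell, while the gelatinase Mmp2 (1.09) and the macrophage elastase Mmp12 (1.69) rose. Neither rise was called without array 3 of 4 d or with a fixed slide block, and 1 of the 2 was called with quantile normalization, normexp, the authors' matrix or a random slide block, or without array 2 or 3 of 1 d. Mmp9 (-0.17) and Timp1 (-0.46) were not called.

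Stress and metabolic lists had medians below the -0.06 of all tested probes, of which 8.53% were called in either direction. Immediate early genes had a median of -0.39 with 2 of 22 called, the RNA-destabilizing Zfp36 (-1.49) and the phosphatase Dusp1 (-1.29), and Fos and Egr1 changed by 0.19 and 0.20. None of the list was called with a fixed slide block, 1 with normexp and 4 without array 2 of 4 d. Glucocorticoid targets had a median of -0.39 with 2 of 12 called, the metallothioneins Mt2A (-1.77) and Mt1 (-1.14), while Fkbp5 changed by 0.14, Tsc22d3 by -0.47 and Per1 by 0.97, and 1 was called without array 2 of 1 d. Glycolysis and hypoxia genes had a median of -0.41, and the one called gene of 19 was heme oxygenase, Hmox1 (-1.01), which was not called with the adjusted t-test or either slide block, nor without array 1 or 3 of 1 d or array 1 of 4 d. Ldha (-0.68), the glucose transporter Slc2a1 (-0.68) and Vegfa (-0.46) were not called, though another probe of Vegfa was called down. Heat shock and unfolded protein genes (median -0.33, with the endoplasmic chaperone Hspa5 at -0.40, Ddit3 at 0.24 and Hspa1b too dim to test) and ribosome biogenesis genes (median -0.37, with Nop56 at -0.42, Fbl at -0.21 and Ncl at -0.28) held no called gene. By the 2-fold rule such small shifts are not called. Of the last lists 18 of 20 and 14 of 15 genes were lower at 4 d. In 12 and 11 of them every array of 4 d lay below every array of 1 d. The latter held for 33.3% of all tested probes, whose median change was -0.06.

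Barrier genes had a median of -0.27 and 2 of 12 called. Over all tested probes 8.53% were called in either direction, which is also the share to set beside the marker counts below. The pump Abcb1a fell by 1.17 on the log2 scale, and cingulin, Cgn, fell at least 2.16-fold to a level not well above background. Neither was called with normexp, the adjusted t-test or a fixed slide block, nor without array 2 of 1 d or array 3 of 4 d. The claudins Cldn1 (0.41) and Cldn5 (-0.45) and occludin, Ocln (0.79), were not called, though another probe of Ocln was called up. Marker lists of the vessel wall and connective tissue had medians of 0.03 for endothelial cells, 0.14 for pericytes and smooth muscle (-0.20 with a fixed slide block) and 0.02 for fibroblasts. Pecam1 (-0.28), Kdr (0.03), Pdgfrb (0.20), Rgs5 (0.73), Pdgfra (-0.13), Dpt (-0.22) and Pi16 (0.02) were not called, and vascular cadherin, Cdh5 (1.47), was, though not with a fixed slide block. Neuron markers gave 2 rises and 1 fall among 7 tested. The neurofilament gene Nefl read -2.62, -3.55 and -2.97 at 1 d and -1.37, -1.31 and -0.09 at 4 d (2.12 ± 0.40 SE, adjusted p = 0.0019), Nefm rose by 1.31 and the RNA-binding Elavl4 fell by 1.40 on the log2 scale. Of the 2 rises 1 was called with either slide block, the methods' t-test or a fit of the 6 arrays alone, and without array 2 of 1 d or array 3 of 4 d, and the fall was not called with normexp or a fixed block. The neuronal tubulin Tubb3 changed by 0.10 and Snap25 by -0.60.

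**Figure D4:**
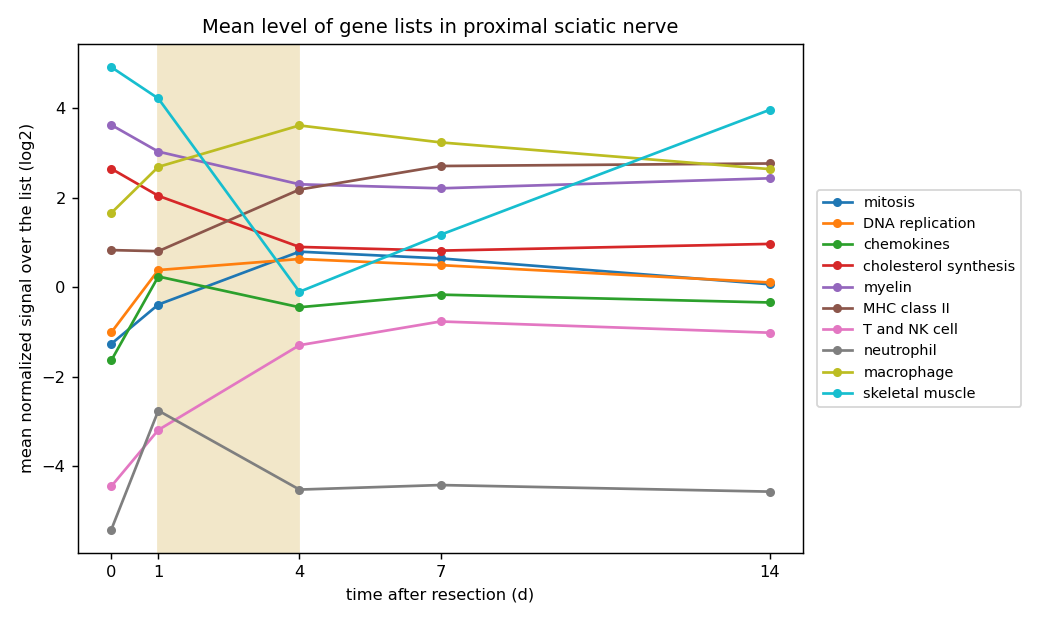
Mean normalized signal (log2, vertical axis) of 10 gene lists in nerve at 0, 1, 4, 7 and 14 d after resection (horizontal axis), each point the mean over the list's genes and 3 arrays, with the interval from 1 d to 4 d shaded. Heights of different lists come from different probes and are not compared. The mitosis list went from -0.39 to 0.79 in the interval and the neutrophil list from -2.75 to -4.52.

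The same interval in the lumbar dorsal root ganglia (DRG), which hold the cell bodies of the sensory axons, was measured on other arrays from the same study. There 532 probes (1.52%) were upregulated and 962 (2.75%) downregulated, 4.27% together. The change in nerve differed from that in DRG for 5643 of 33796 probes (16.7%) by the interaction in limma, 2775 (8.21%) with the nerve change above and 2868 (8.49%) below. Of the probes upregulated in nerve 1074 were tested in DRG, and 132 of them were upregulated there too. The interaction was called for 21 of the 29 mitosis genes, 22 of the 24 cholesterol genes and 12 of the 16 T and NK cell genes. In DRG the medians were 0.32 for the mitosis list, -0.21 for the cholesterol list and 0.29 for T and NK cells. MHC class II genes showed no called difference, with a median of 1.36 and 5 upregulated genes in DRG. The difference for Cd74 was -0.10 ± 0.22 (SE), and for C3 it was 0.06 ± 0.31. Ngfr differed by 1.89 (adjusted p = 2.2e-08), with a change of -0.26 in DRG. When slide was added to this fit as a fixed block, 2444 probes differed.

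**Figure D5:**
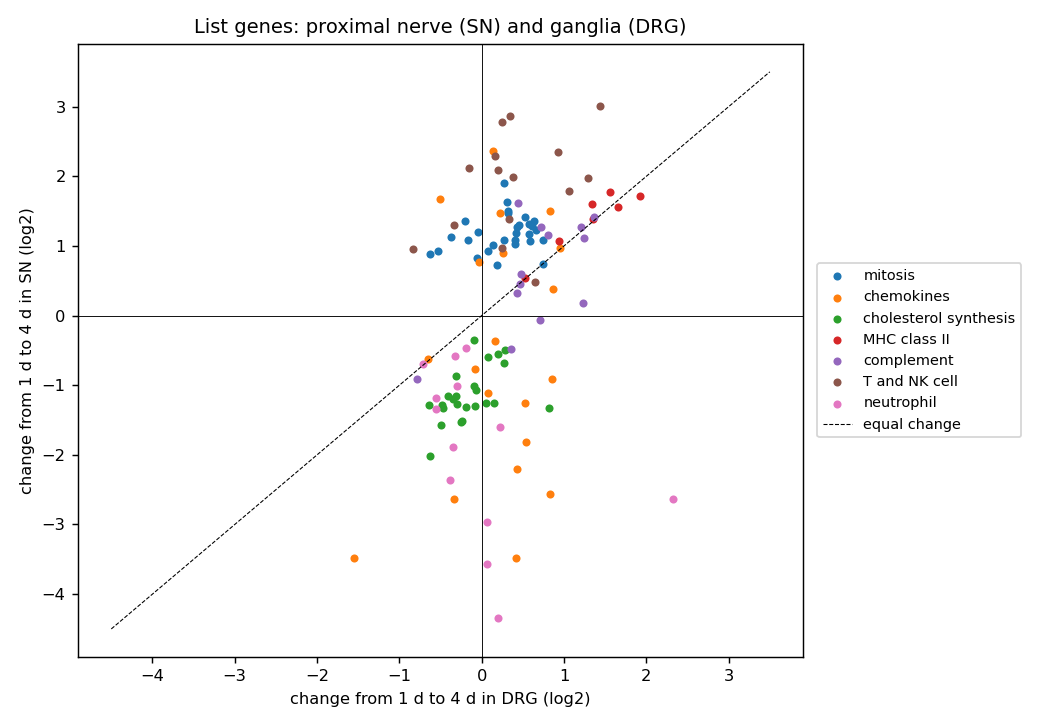
Change from 1 d to 4 d in DRG (horizontal axis, log2) against that in nerve (vertical axis, log2) for genes of 7 lists tested in both tissues, 1 point per gene, with the dashed line at equal change. Mitosis and cholesterol genes lie far from the line while MHC class II genes lie along it, with medians of 1.55 in nerve and 1.36 in DRG.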

How the data were processed

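RNA of proximal sciatic nerve was labelled with Cy3 and hybridized to Agilent 4x44K rat arrays. The intensity of each spot was deposited by the authors as scanner output of Feature Extraction 10.5.1.1, background-subtracted within the array and not normalized between arrays, per the file headers. The authors also deposited a matrix of log2 values, which have the same distribution on all 30 arrays. That matrix was used as an alternative.

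Of 45018 spots 43379 are no controls. Outlier-flagged spots were left out, spots of a probe averaged, and the 75th percentile of each array subtracted. Tested were probes that stood well above background on the 3 arrays of 1 nerve time point or more, with limma 3.58.1 (R 4.3.3, statmod 1.5.0, and data.table, version 1.17.8) on the 15 nerve arrays, which share 1 estimate of the spread, and a call needed more than a 2-fold change with p under 0.05 after the Benjamini-Hochberg correction. The interaction with DRG used all 30 arrays and an adjusted p under 0.05. The program was tested on simulated data. Tables and figures used Python 3.11.15, pandas 2.3.3, numpy 2.4.6 and matplotlib 3.10.9.

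Array symbols (annotation build rn4) were updated through the RefSeq gene table (GRCr8, names only), which held 16406 of 23727 probes with an accession. A gene is shown by its probe of highest mean signal. Described are the 12 largest rises and 12 largest falls among called probes above background on all 6 arrays, with the days separated and 1 probe per gene, the first 3 and the 3 most changed called genes of each of 20 process lists, the first 3 of 13 marker lists, and 6 genes per direction with the smallest interaction p. Others are named where a sentence turns on them, and some genes that meet these rules are not reported here. Of 368 process genes 354 are on the array, 52 called up and 48 down, and of 121 marker genes 113, 24 up and 28 down. The members and lists were chosen with earlier results of these data known. The alternatives were other normalizations, background correction (normexp, offset 50), filters, tests, blocks and single arrays left out. The number of arrays limits the precision, and no spot was saturated.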

Additional observations from a re-analysis of the deposited data

Results flagged for a closer look

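The following genes changed differently in nerve and in DRG between 1 d and 4 d, by the interaction test in limma. They are among the 6 with the smallest interaction p in each direction, of genes called in nerve. Each value is the log2 change in nerve minus that in DRG. The test for a single outlying array in a group was not applied, since it needs at least 4 arrays and each group held 3.

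Some genes rose in nerve with a change above that in DRG. They were Calcb, a sensory neuropeptide (difference 4.73), the protease-like gene Prss35 (4.00) and the apolipoprotein Apoc4 (2.57). The others were the semaphorin receptor Plxnc1 (2.26), the signalling regulator Rgs10 (1.80) and the cytoskeletal gene Septin4 (1.52). In DRG, Calcb changed by -0.45, Prss35 by -0.37, Rgs10 by -0.0019 and Septin4 by -0.47. Apoc4 read -3.39, -3.26 and -3.32 at 1 d and -0.80, -0.79 and -0.81 at 4 d in nerve, with almost no spread within a day, and changed by -0.05 in DRG. Plxnc1 read -3.82, -4.03 and -3.80 at 1 d and -1.61, -1.68 and -1.56 at 4 d, with a change of 0.01 in DRG.

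Falls in nerve met a rise in DRG for Il1r2, the decoy receptor of interleukin-1 (difference -4.95), Tgm1, a transglutaminase (-4.09), Cldn4, a claudin (-4.08), and Serpina3n, a protease inhibitor (-4.06). Il1r2 changed by -2.63 in nerve and by 2.32 in DRG, and Serpina3n by -1.09 and 2.97. The changes in DRG were 2.70 for Tgm1 and 2.91 for Cldn4, and all 4 rises there had an adjusted p in limma of at most 2.3e-05. That p is no separate support, since the interaction p that picked these genes uses the same DRG arrays. Vgf, a secreted neuropeptide precursor, had a difference of -2.76. It read 1.31, 1.36 and 1.23 at 1 d and -1.78, -1.57 and -1.76 at 4 d in nerve, and its change in DRG was -0.25.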

How the results depend on the processing

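Counts of probes up and down were 648 and 454 with normexp and quantile normalization, 1060 down with the methods' t-test after adjustment (1078 up; 1173 and 1655 unadjusted), and 839 and 431 with slide as a fixed block in both tissues, where 2444 probes differed between tissues and the median of all probes shifted by 0.10. Leaving out single arrays gave 1045 to 2183 down and a share up of 35.5% to 51.5%. That share was 39.9%, and 54.9% with quantile normalization, 58.8% with normexp, 54.6% with the authors' matrix, 50.4% with the adjusted t-test and 66.1% with the fixed slide block. With slide as a random block 1087 were up and 1246 down. The fewest falls came without array 3 of 4 d and the most without array 2 of 4 d.

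List medians moved as follows. Normexp: mitosis 1.05, cytokines -0.067, chemokines -0.51, immediate early -0.22, barrier -0.13 and proteases 0.018 (reversed from -0.01). Fixed slide block: immediate early -0.18, glucocorticoid -0.75, ribosome -0.48, repair 0.29, collagens 0.15, lipid 0.47, MHC class II 1.40 and barrier -0.40. All probes of a gene: cytokines -0.50, repair 0.15, MHC class II 1.38. Repair was 0.33 with quantile normalization and 0.34 with the authors' matrix. Single arrays left out: mitosis 1.12 to 1.23, chemokines -1.20 to -0.60, immediate early -0.42 to -0.34, glycolysis -0.44 to -0.31, repair 0.044 to 0.36, proteases -0.074 to 0.071, complement 0.42 to 0.59 and barrier -0.33 to -0.14.

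Reversals were of values near 0 or under the fixed slide block. The fibroblast median was -0.055 with that block, -0.0025 with the percentile over probes above background and -0.08 and -0.15 without array 2 of 1 d and array 3 of 4 d. The endothelial median was -0.053 with the block, -0.021 over all probes of a gene, and -0.0080, -0.00030 and -0.0095 without array 1 of 1 d and arrays 2 and 3 of 4 d. Without array 3 of 1 d it was 0.071. With the block, which rests on 1 DRG array of 1 d, Il11 was 0.38, Ltf 0.48 and Kit 0.11. The causes were not tested. Of 170 list and named genes called, 166 were called with the authors' matrix, 139 with normexp, 139 with the random and 102 with the fixed slide block, and 146 to 160 without single arrays.

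Same-numbered arrays of 1 d and 4 d had deviations that correlated at -0.09, 0.08 and -0.01, so the numbers do not pair them. With a replicate block 1195 probes were up and 1753 down. Scan as a block was not run, since all 12 arrays of these days share 1 scan.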

Other observations

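Olfactory receptor probes were mostly lower at 4 d. Of 1112 probes with such a name 658 were tested, and 171 were downregulated and 4 upregulated, with a median change of -0.86. Over all tested probes 5.13% were downregulated and 3.4% upregulated. Downregulated probes of any name were dim too, with a median level of -5.15 at 4 d, and a comparison with other probes of equal level was not made. The olfactory receptor probes had a median level of -4.83 at 1 d and -5.52 at 4 d, and 420 of them were well above background on all 6 arrays. The number of olfactory receptor probes downregulated was 111 with quantile normalization, 14 with normexp and 70 without array 3 of 4 d.

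Of the probes downregulated in nerve 1543 were tested in DRG, and 261 of them were downregulated there too and 24 upregulated. Among all probes tested in DRG 2.75% were downregulated and 1.52% upregulated.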
